A study of Mus musculus with 4 samples.

Results

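Oxidative phosphorylation subunit genes encoded in the nucleus were examined for open chromatin in newborn mouse hearts. They were chosen by symbol from the autosomal protein-coding genes of the RefSeq annotation of GRCm38.p6: the Ndufa, Ndufb, Ndufc, Ndufs, Ndufv, Uqcr, Cox4 to Cox8 and Atp5 families, with Sdha, Sdhb, Sdhc, Sdhd, Cyc1 and Cycs, and without the Ndufaf assembly factors. This gave 87 genes of 20665. There were 39 genes of complex I, 4 of complex II, 9 of complex III, 17 of complex IV, 17 of complex V and 1 for cytochrome c. Complexes were assigned by symbol, so Ndufa4, now known as a subunit of complex IV, is counted with complex I throughout.

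Chromatin accessibility was profiled with ATAC-seq. The assay uses a transposase that cuts and tags DNA where nucleosomes leave it exposed. Each library is represented by a list of peaks, the regions with more cut fragments than the local background. The series has 2 groups of 2 libraries, WT and miR-187. Per the methods of the study, the miR-187 mice carry mmu-miR-187 placed at the Rosa26 locus, made on a C57BL/6J background and driven by the promoter of Tek (Tie2), so the microRNA is overexpressed from a transgene in endothelial cells and not from its own gene. The labels give heart as the tissue, with WT mice on the day of birth, and state neither zygosity nor a cell sort for these libraries, while the study describes endothelial cells captured from newborn hearts with beads against CD31, the product of Pecam1, and compares KI/KI (homozygous) with +/+ mice. Nothing states that replicates came from separate animals, so the spread between the 2 libraries of a group may be technical.

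The respiratory chain passes electrons from NADH (complex I) and succinate (complex II) through ubiquinone to complex III, cytochrome c and complex IV, which reduces oxygen. Complexes I, III and IV pump protons across the inner mitochondrial membrane, and complex V, the ATP synthase, uses the resulting gradient to make ATP. Most subunits are encoded in the nucleus by genes with CpG-rich promoters that are active in nearly every tissue, and the factors known to bind them include NRF1, the ETS factor GABPA, YY1, SP1 and the estrogen-related receptors. Cardiac muscle depends heavily on this pathway, and a few complex IV subunits exist as alternative isoforms of muscle, lung or testis.

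Autosomal peaks numbered 9307 (replicate 1) and 12155 (replicate 2) for WT, and 7407 (replicate 1) and 1461 (replicate 2) for miR-187. Values given below as a run of 4 follow this order. Background read densities inferred from the peak values were 1751, 5227, 2016 and 1032 reads per Mb. The miR-187 replicate 2 library therefore stood apart, with the shortest list and the lowest density, and every group value below rests partly on it. Of 18 endothelial marker genes, 3, 5, 2 and 1 had a peak summit within 1 kb of a gene boundary in the 4 libraries, and of 18 cardiomyocyte markers 2, 0, 0 and 0 did, beside 21.8, 31.2, 20.3 and 3.18% of all genes. The endothelial shares, 16.7, 27.8, 11.1 and 5.56%, were thus below that of all genes in 3 libraries. Cdh5 had one in 3 lists, Kdr and Tek in 2, and Fli1, Npr3, Robo4 and Tie1 in 1. The other 11 endothelial markers, Pecam1 and Vwf among them, had no such peak in any list. Of 8 fibroblast markers, 2, 4, 1 and 0 had one. All 3 marker sets had at most 1 gene with a peak in miR-187 replicate 2, and their part in the results below was not tested.

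The promoter sequences that the results turn on are given first, from RefSeq on GRCm38.p6, each running from 250 bases before a start site to 50 after it. Capitals mark matches, on either strand, to short motifs of known regulators: GCATGCGC for NRF1, CCGGAAG for ETS factors, AAGATGGC for YY1, CCAAT for the CCAAT box, GGGCGG for SP1 and AAGGTCA for the estrogen-related receptors. Atp5b encodes the catalytic beta subunit of the ATP synthase and Ndufv2 an iron-sulfur subunit of the NADH-oxidizing module of complex I. They are shown because both had a peak in all 4 lists and an entry in the promoter table. The Atp5b sequence (chr10:128083057-128083356, plus strand) and the Ndufv2 sequence (chr17:66101510-66101809, minus strand) read as follows.
Atp5b: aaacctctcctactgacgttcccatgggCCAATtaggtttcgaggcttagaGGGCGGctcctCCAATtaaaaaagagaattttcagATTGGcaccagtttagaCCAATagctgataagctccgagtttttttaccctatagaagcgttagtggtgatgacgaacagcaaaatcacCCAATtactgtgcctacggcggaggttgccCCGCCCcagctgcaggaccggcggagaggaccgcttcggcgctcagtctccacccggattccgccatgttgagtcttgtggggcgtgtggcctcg
Ndufv2: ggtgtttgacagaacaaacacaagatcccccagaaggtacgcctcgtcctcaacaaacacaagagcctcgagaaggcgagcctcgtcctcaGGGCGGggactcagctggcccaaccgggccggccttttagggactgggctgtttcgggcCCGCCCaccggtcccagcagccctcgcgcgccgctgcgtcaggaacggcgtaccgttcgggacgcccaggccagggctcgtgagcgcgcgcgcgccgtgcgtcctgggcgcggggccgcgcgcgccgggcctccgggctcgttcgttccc
Atp5b holds CCAAT boxes and SP1 matches, and Ndufv2 holds SP1 matches and none of the other motifs.

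The second set shows 3 pairs of complex IV genes, each a tissue isoform beside its ubiquitous counterpart, because complex IV differed most from the other complexes in how many of its genes had a peak. Cox8b and Cox7a1 are the isoforms of heart and skeletal muscle, and Cox6b2 is that of testis. The sequences are Cox8a (chr19:7217567-7217866, minus strand), Cox8b (chr7:140900397-140900696, minus strand), Cox7a2 (chr9:79759804-79760103, minus strand), Cox7a1 (chr7:30183921-30184220, plus strand), Cox6b1 (chr7:30626065-30626364, minus strand) and Cox6b2 (chr7:4753045-4753344, minus strand).
Cox8a: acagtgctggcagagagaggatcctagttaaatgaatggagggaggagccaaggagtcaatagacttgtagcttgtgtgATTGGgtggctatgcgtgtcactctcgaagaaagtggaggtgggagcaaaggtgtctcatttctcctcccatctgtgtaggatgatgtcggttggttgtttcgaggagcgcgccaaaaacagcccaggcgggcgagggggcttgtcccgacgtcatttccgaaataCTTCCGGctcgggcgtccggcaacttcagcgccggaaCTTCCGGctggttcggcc
Cox8b: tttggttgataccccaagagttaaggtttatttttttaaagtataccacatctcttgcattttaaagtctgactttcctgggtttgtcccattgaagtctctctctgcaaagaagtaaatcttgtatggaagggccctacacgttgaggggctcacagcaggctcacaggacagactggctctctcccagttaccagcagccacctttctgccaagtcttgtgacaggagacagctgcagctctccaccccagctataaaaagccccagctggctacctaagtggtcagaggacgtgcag
Cox7a2: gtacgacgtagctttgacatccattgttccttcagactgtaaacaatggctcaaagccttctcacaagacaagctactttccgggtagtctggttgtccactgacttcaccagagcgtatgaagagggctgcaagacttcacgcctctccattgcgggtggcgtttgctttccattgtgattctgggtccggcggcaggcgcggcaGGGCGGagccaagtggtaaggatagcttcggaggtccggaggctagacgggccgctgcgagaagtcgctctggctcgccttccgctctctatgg
Cox7a1: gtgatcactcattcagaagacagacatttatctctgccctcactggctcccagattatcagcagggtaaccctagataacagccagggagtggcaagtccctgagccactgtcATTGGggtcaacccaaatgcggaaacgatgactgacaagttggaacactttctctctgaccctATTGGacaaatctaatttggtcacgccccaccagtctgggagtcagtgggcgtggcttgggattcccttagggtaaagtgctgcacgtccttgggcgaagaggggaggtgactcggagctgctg
Cox6b1: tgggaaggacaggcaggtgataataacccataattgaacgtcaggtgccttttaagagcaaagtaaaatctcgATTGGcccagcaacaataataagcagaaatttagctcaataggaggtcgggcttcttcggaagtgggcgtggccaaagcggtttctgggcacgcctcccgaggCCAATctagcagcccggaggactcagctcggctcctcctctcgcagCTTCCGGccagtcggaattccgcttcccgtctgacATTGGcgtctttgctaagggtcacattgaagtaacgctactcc
Cox6b2: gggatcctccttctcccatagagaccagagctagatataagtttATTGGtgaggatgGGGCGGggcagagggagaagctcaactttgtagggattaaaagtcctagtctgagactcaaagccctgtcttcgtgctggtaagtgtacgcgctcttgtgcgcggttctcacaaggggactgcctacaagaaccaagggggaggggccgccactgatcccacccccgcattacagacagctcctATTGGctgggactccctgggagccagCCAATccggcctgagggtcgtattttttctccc
The ratio of observed to expected CpG over these 300 bases was 0.842 for Cox8a, 0.833 for Cox7a2 and 0.807 for Cox6b1, and 0.115 for Cox8b, 0.33 for Cox7a1 and 0.432 for Cox6b2. Each ubiquitous gene was thus above 0.6, the ratio taken as CpG-rich here, and each tissue isoform below it. Of these 6 genes only Cox8a had a peak summit within 1 kb of an end of the gene, the criterion used below. The Cox7a2 start site shown lies inside the annotated gene, over 1 kb from both ends, and peaks that this criterion does not count overlapped its sequence in WT replicate 1 (chr9:79759758-79759957, −log10 q 3.02) and WT replicate 2 (chr9:79759778-79760092, 5.54).

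The first question was how many subunit genes had an accessible region at a gene boundary in each library. A boundary peak was counted where the summit lay within 1 kb of either end of the gene. In WT replicate 1, 33 of 87 genes (37.9%, 95% Wilson interval 28.5 to 48.4) had one, against 21.8% of all autosomal protein-coding genes. WT replicate 2 had 48 (55.2%, 44.7 to 65.2) against 31.2%. In miR-187 replicate 1 the count was 34 (39.1%, 29.5 to 49.6) against 20.3%, and in miR-187 replicate 2 it was 7 (8.05%, 3.95 to 15.7) against 3.18%. The subunit share was thus above the share of all genes in each of the 4 libraries, by 1.74, 1.77, 1.93 and 2.53 times. The intervals cover counting error over genes only.

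Between groups, WT libraries had 40.5 ± 10.6 subunit genes with a boundary peak and miR-187 libraries 20.5 ± 19.1 (SD, n = 2 each), a difference of -20.0 genes. The groups overlapped, since miR-187 replicate 1, with 34 genes, lay above WT replicate 1, with 33. As shares these were 46.6 ± 12.2% and 23.6 ± 21.9%, and over all genes 26.5 ± 6.61% and 11.7 ± 12.1%. With 2 libraries against 2 there are only 6 ways to assign them, and the smallest p an exact 2-sided permutation test allows is 0.33, above 0.05 whatever the difference. Without miR-187 replicate 2 the difference was -6.50 genes. The excess of the subunit share over the share of all genes was 16.1, 24.0, 18.8 and 4.86 percentage points, a difference of -8.20 against a pooled SD of 8.0, which reversed to 1.24 with lists of equal length and to 0.0655 with summit reads thinned to one background density. When each list was limited to its 1461 highest-ranked peaks, the counts were 9, 6, 8 and 7 (10.3, 6.90, 9.20 and 8.05% of members, beside 4.88, 5.76, 4.97 and 3.18% of all genes), and the difference was 0. Thinning the inferred summit reads to the background density of miR-187 replicate 2 left an expected 21.1, 9.54, 19.0 and 7.0 members (beside 13.9, 6.91, 12.2 and 3.18% of all genes expected), a difference of -2.31. In bulk samples, fewer cells with an open site and less opening per cell cannot be told apart, and a gene with no listed peak is not shown to be closed.

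**Figure D1:**
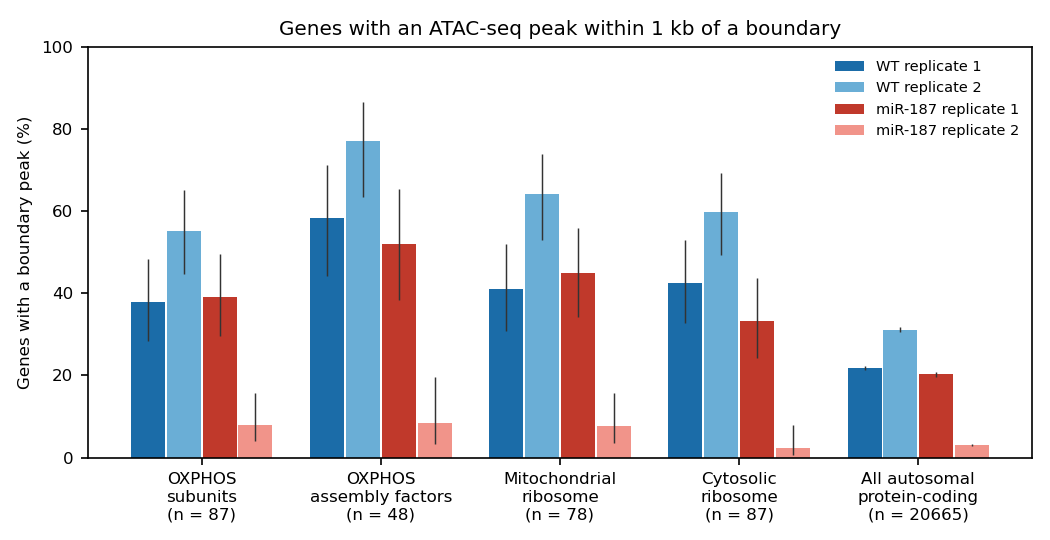
Percentage of genes with a boundary peak (vertical axis) for the subunit genes, their assembly factors, the mitochondrial and cytosolic ribosomal protein genes and all autosomal protein-coding genes, with 1 bar per library and 95% Wilson intervals as lines. The subunit bars stand at 37.9, 55.2, 39.1 and 8.05%, above those of all genes at 21.8, 31.2, 20.3 and 3.18%, and the miR-187 replicate 2 bar is the lowest within every set.

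By complex, the share of genes with a boundary peak was above that of all genes in each of the 4 libraries for complexes I, III and V and below it in each for complex IV, a difference that did not hold in every list at start sites (given last). Of the 39 complex I genes, 16, 24, 16 and 4 had one in the 4 libraries. The complex III counts were 6, 7, 4 and 1 of 9, and those of complex V were 7, 11, 8 and 2 of 17. The Wilson intervals included the share of all genes for complex III in both miR-187 libraries (18.9 to 73.3 and 1.99 to 43.5%). They also did for complex V in WT replicate 1 (21.6 to 64.0%), and the other intervals of complexes I, III and V lay above it. Complex II had 2, 2, 2 and 0 of 4 (50.0, 50.0, 50.0 and 0%, beside 21.8, 31.2, 20.3 and 3.18% of all genes). Its Wilson intervals (15.0 to 85.0% for 2 genes and 0 to 49.0% for 0) include the share of all genes in each library. In complex IV 1, 3, 3 and 0 of 17 genes had a peak, and the Wilson intervals of these shares (up to 27.0, 41.0, 41.0 and 18.4%) include the share of all genes in each library. Over any of the 4 lists, 3 of 17 complex IV genes (17.6%) and 55 of the 70 other members (78.6%) had a peak, beside 39.5% of all genes. Counting summits within 1 kb of an annotated start site instead, 3, 4, 3 and 0 of the 12 complex IV genes with such a site had a peak (25, 33.3, 25 and 0%, beside 23.4, 33.6, 22.0 and 3.36% of all genes), so that complex IV was above all genes in replicate 1 of each group. Over any list 4 of 12 did (33.3%), against 46 of 57 other members (80.7%) and 42.1% of all genes.

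**Figure D2:**
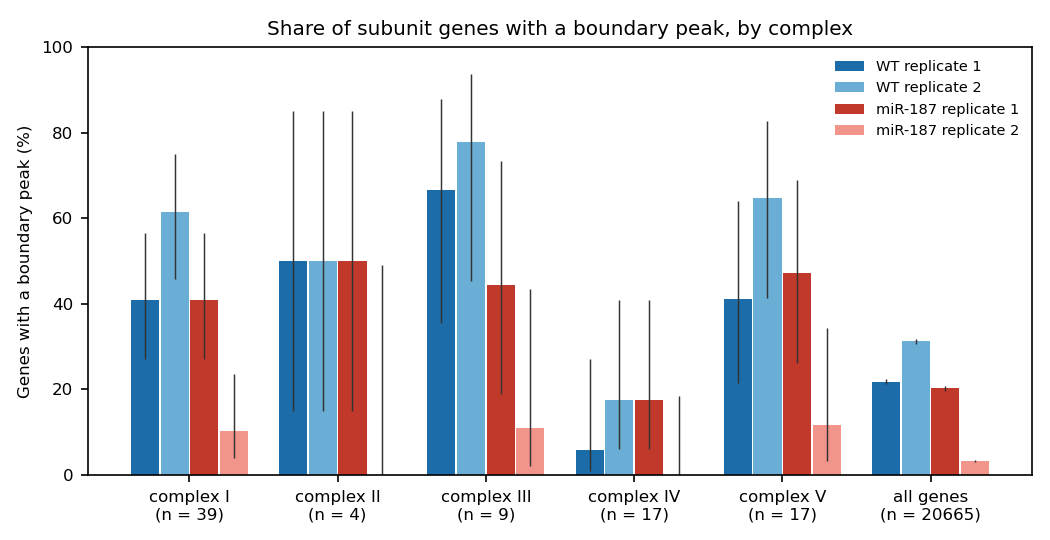
Percentage of genes with a boundary peak by respiratory complex and for all genes, with 1 bar per library and 95% Wilson intervals as lines. Complex IV is the lowest of complexes I to V in both WT libraries and in miR-187 replicate 1, at 5.88, 17.6 and 17.6%, and complexes II and IV have no gene with a peak in miR-187 replicate 2.

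The complex IV genes with a boundary peak were Cox4i1, Cox7a2l and Cox8a, with Ndufa4 left out because it is counted with complex I by symbol. Cox4i1, the ubiquitous form of the regulatory subunit 4, had a peak in WT replicate 2 (−log10 q 3.39) and another in miR-187 replicate 1 (2.77). Cox7a2l, counted with complex IV by symbol, had 4.79 and 3.42 in the same 2 libraries. Cox8a had 6.29, 2.07 and 2.67 in WT replicate 1, WT replicate 2 and miR-187 replicate 1. The Cox8a peak had a percentile rank of 90.6 in the list of WT replicate 1 and of 2.94 in that of WT replicate 2, from 11 and 9 inferred reads at the summit.

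No boundary peak was listed for the other 14 complex IV genes. They include ubiquitous subunits (Cox5a, Cox5b, Cox6a1, Cox6b1, Cox6c, Cox7a2 and Cox7c) and the tissue forms Cox6a2, Cox7a1 and Cox8b of heart and skeletal muscle, Cox4i2 of lung, and Cox6b2, Cox7b2 and Cox8c of testis. Peaks that lie at an annotated start site inside the gene, beyond 1 kb from its ends, were present at Cox5a (−log10 q 5.72, 4.45 and 6.96 in both WT libraries and miR-187 replicate 1) and at Cox7a2 in both WT libraries. Among genes with a CpG-rich promoter, 2 of 8 complex IV genes and 39 of 49 other members had a boundary peak in at least 1 list, beside 62.2% of all CpG-rich genes. At start sites these counts were 4 of 8 and 40 of 49, beside 67.2%. The contrast between complexes was noticed in these data and was given no test.

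Over both complex I and complex IV, 8 members were listed as tissue isoforms, and 0, 0, 0 and 1 of them had a boundary peak in the 4 libraries, beside 21.8, 31.2, 20.3 and 3.18% of all genes. With 8 genes, a count of 0 has a Wilson interval of 0 to 32.4%, which includes these shares. The exception was Ndufa4l2, a paralog of Ndufa4 known for its induction in hypoxia. Its peak in miR-187 replicate 2 (chr10:127508235-127508434) had a −log10 q of 2.2 and 6 inferred reads at the summit, lay 891 bp from the boundary of Ndufa4l2, and was also within 1 kb of a boundary of Stac3, so it cannot be assigned to either gene. Inside Ndufa4l2, away from its ends, WT replicate 2 and miR-187 replicate 1 also had a peak (−log10 q 5.73 and 4.45). Of 6 ubiquitous counterparts on autosomes, 2, 3, 2 and 0 had a peak (Cox8a, Cox4i1 and Ndufa4 in various lists), and the Wilson intervals (9.68 to 70.0, 18.8 to 81.2, 9.68 to 70.0 and 0 to 39.0%) include the same shares of all genes. Ndufa4, named as a complex I gene but now known as a subunit of complex IV, had a peak for each WT library and for no miR-187 library.

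The core of complex I, the 7 nuclear subunits shared with the bacterial enzyme, had 5, 4, 3 and 1 genes with a boundary peak, beside 21.8, 31.2, 20.3 and 3.18% of all genes. Ndufv1, which binds NADH, had a −log10 q of 4.30, 7.57 and 3.83 in WT replicate 1, WT replicate 2 and miR-187 replicate 1. Ndufs7, which carries the last cluster before ubiquinone, had 4.05, 12.3 and 5.16 in the same lists. Ndufs8 had 3.79 and 4.48 in the WT lists only, and Ndufs1 had 2.84 in WT replicate 1 only. The fold enrichment of Ndufs7 was 5.16, 6.74 and 5.79. Fold is the peak height over the local background, with 1 added to both. At such low read numbers the added 1 makes fold depend on depth, and it is not a plain ratio. At equal fold, −log10 q rises with depth, so its values describe each library.

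The 4 genes of complex II, succinate dehydrogenase, and the electron carriers Cyc1 and Cycs were taken one by one. Sdha, the flavoprotein, had a peak in replicate 1 of each group (−log10 q 2.33 for WT and 2.48 for miR-187), both low in their lists, at percentile ranks of 17.7 and 10.1. Sdhb, the iron-sulfur subunit, had no boundary peak. The membrane anchor gene Sdhc had 7.78 in WT replicate 2 only, and Sdhd, the other anchor, had 4.59, 2.88 and 8.29 in both WT libraries and miR-187 replicate 1. Cyc1, cytochrome c1 of complex III, had 15.9 in WT replicate 2, at a percentile rank of 99.1, and 3.70 in miR-187 replicate 1. Cycs, somatic cytochrome c, had 3.35, 12.1 and 4.29 in both WT libraries and miR-187 replicate 1. None of these genes had a boundary peak in miR-187 replicate 2.

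Membership of the lists varied widely from gene to gene. At least 1 list held a boundary peak for 58 members (66.7%, beside 39.5% of all genes), and 29 had none. Among the 29, Atp5g3, Cox5a and Cox7a2 had a peak at an annotated start site over 1 kb from the ends of the gene. Exactly 1 list held 15 members (17.2%), 2 lists held 26 (29.9%), 3 lists held 13 (14.9%) and all 4 held 4, beside 14.9, 13.6 and 9.67% of all genes in exactly 1, 2 and 3 lists. The 4 in all lists were Atp5a1, Atp5b, Ndufv2 and Uqcrc2 (4.60%, beside 1.36% of all genes). The pattern with the most members, 14, combined WT replicate 2 with miR-187 replicate 1 and no other list (16.1%, beside 5.48% of all genes), which pairs libraries of different groups. It held Ndufa2, Ndufa3, Ndufa5, Ndufb2, Ndufb5, Ndufs4, Ndufs5, Cyc1, Cox4i1, Cox7a2l, Atp5g1, Atp5j2, Atp5md and Atp5pb.

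**Figure D3:**
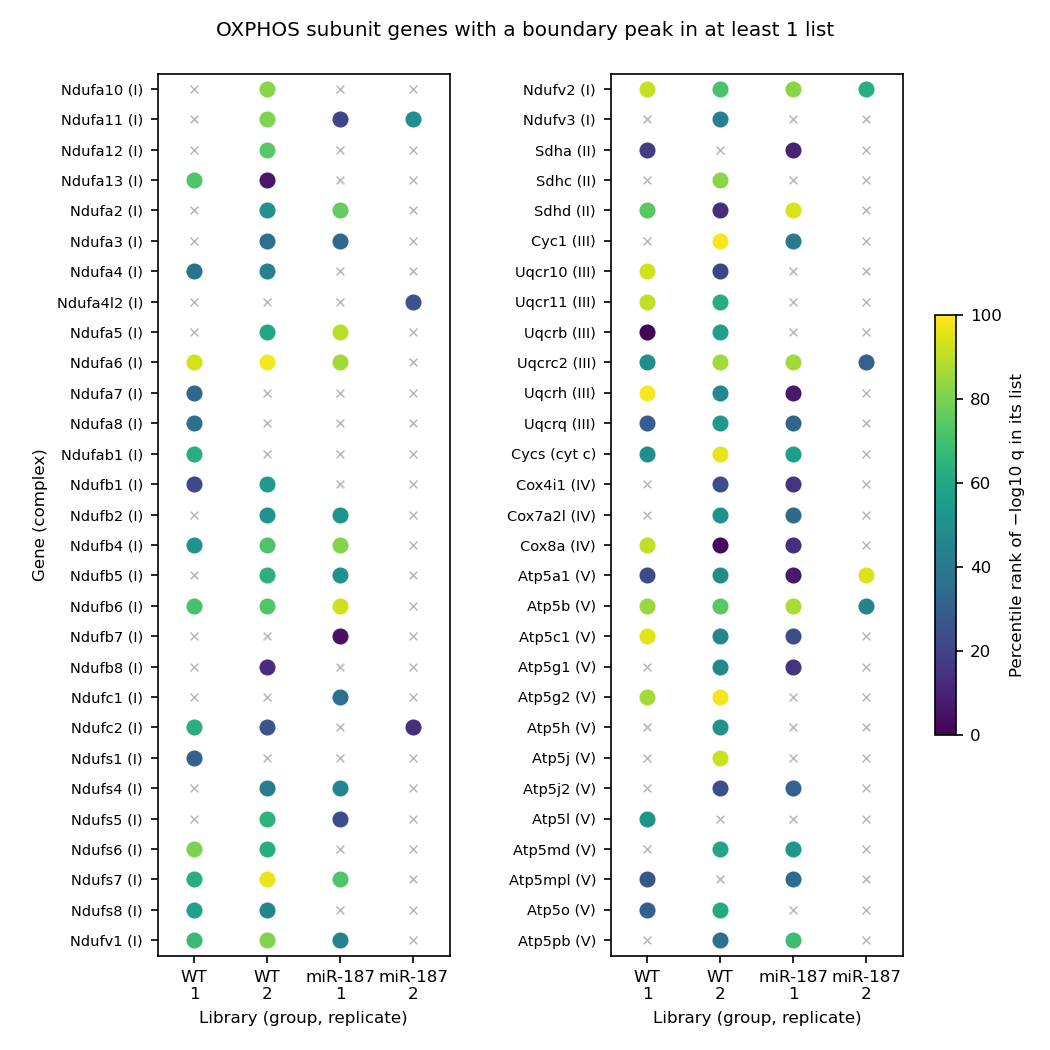
Each of the 58 subunit genes with a boundary peak in at least 1 list (rows, with the complex in brackets) across the 4 libraries (columns); a circle marks a peak, coloured by the percentile rank of its −log10 q within the list, and a cross marks no boundary peak. The miR-187 replicate 2 column holds 7 circles, and 4 genes have a circle in all columns.

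The 4 genes with a peak in every list each had its summit close to a boundary. At Atp5b (gene chr10:128083307-128090388), the inferred number of reads at the summit was 11, 18, 13 and 6, with fold enrichments of 6.52, 5.46, 7.0 and 5.30. Its summits lay 211, 63, 89 and 15 bp upstream of the start site, all within the Atp5b sequence printed above. At Ndufv2 (gene chr17:66078795-66101559) there were 13, 16, 11 and 6 reads and folds of 6.86, 5.63, 6.90 and 5.65, with summits 112, 82, 50 and 55 bp upstream. For both genes the read count was lowest in miR-187 replicate 2, the library with the lowest background. At both genes the fold of miR-187 replicate 1 was above that of either WT library. These folds include the added 1 and depend on depth, so their order is not read as an order of accessibility.

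Uqcrc2 (gene chr7:120635189-120659523) encodes a core subunit of complex III, and its peaks held 8, 21, 13 and 5 reads with folds of 5.23, 6.01, 6.86 and 4.84. Atp5a1 (gene chr18:77773768-77782869), the alpha subunit of the ATP synthase, had 7, 13, 7 and 9 reads and folds of 4.55, 5.07, 4.35 and 7.35. Its miR-187 replicate 2 peak therefore had the highest fold of the 4, and its −log10 q of 5.52 stood at a percentile rank of 94.3 in that list, against 22.1, 48.2 and 6.68 in the others. The Atp5a1 summits lay 339 to 374 bp from its boundary and also within reach of Haus1, so they cannot be assigned to one gene. The other genes with a peak in miR-187 replicate 2 were Ndufc2, Ndufa11 and Ndufa4l2. Ndufc2 had −log10 q values of 4.05, 3.48 and 1.91 in both WT libraries and miR-187 replicate 2, Ndufa11 had 7.51, 3.01 and 2.87 in WT replicate 2 and both miR-187 libraries, and Ndufa4l2 is described above.

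The next question was which subunit genes had a peak for each WT library but for no miR-187 library. Both WT lists held a peak for 26 members (all genes: 16.5%), of which 16 (61.5%) also had one in a miR-187 list and 10 (38.5%) had none in either. For all genes held by both WT lists the share was 36.3%, so the members' share was near the background. Relative to all members tested, the 10 genes are 11.5%, beside 6.01% of all genes. The opposite pattern, a peak for each miR-187 library but for no WT library, occurred for 0 members, beside 0.0677% of all genes (14 of 20665). Among the 10 genes were 5 counted with complex I by symbol (Ndufa4, Ndufa13, Ndufb1, Ndufs6 and Ndufs8). The others were 3 of complex III (Uqcr10, Uqcr11 and Uqcrb) and 2 of complex V (Atp5g2 and Atp5o). Of these, Ndufa4 is the one now known as a subunit of complex IV. Without miR-187 replicate 1 the count was 21, with 5 of the 26 kept in miR-187 replicate 2, beside 376 of 3417 over all genes. Without WT replicate 1 the count was 17, which adds 7 members in the WT replicate 2 list only (8.05%, beside 8.34% of all genes). It was 1 when each list was limited to its 1461 highest-ranked peaks and 3 at a −log10 q of at least 5. At both settings fewer members were held by both WT lists, and 50.0% of them were kept in a miR-187 list.

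These 10 genes differed in the strength of their WT peaks. Atp5g2, a gene for the c-ring subunit of the ATP synthase, had −log10 q values of 5.70 and 13.9 in WT replicates 1 and 2, from 12 and 31 inferred reads, and ranked at 86.6 and 98.1. Atp5o, the stalk subunit OSCP, had 2.84 and 5.46. Among the complex III genes, Uqcr10 had 6.73 and 3.22, Uqcr11 had 6.29 and 5.59, and Uqcrb had 1.41 and 5.19. The Uqcrb peak of WT replicate 1 rested on 4 reads and ranked at 0.688, the lowest rank among these WT peaks. Among the complex I genes, Ndufs6 had 5.13 and 5.54, Ndufs8 had 3.79 and 4.48, Ndufa4 had 3.09 and 4.40, the accessory subunit gene Ndufb1 had 2.40 and 5.04, and Ndufa13, also an accessory subunit, had 4.49 and 2.44. At Atp5g2, Ndufs6 and Uqcr11, which had a percentile rank above 60 in both WT lists, the summits lay between 12 and 156 bp from the start site.

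For 7 of the 10 genes a listed peak was also within 1 kb of another protein-coding gene. Ndufs6 shared its peaks with Mrpl36, a mitochondrial ribosomal protein gene, Ndufb1 with Cpsf2, Ndufa4 with Phf14, Ndufs8 with Aldh3b1, Uqcr10 with Zmat5, Ndufa13 with Tssk6 and Uqcrb with Gm10767. Atp5g2, Atp5o and Uqcr11 had none other in reach. Across the libraries, 17 of 33, 24 of 48, 14 of 34 and 3 of 7 member peaks lay at a second gene as well. Members had a protein-coding neighbour within 1 kb more often than all genes, 48 of 87 (55.2%) against 25.6%. Among the 39 members with no such neighbour, 30.8, 46.2, 33.3 and 2.56% had a peak, beside 17.2, 25.1, 16.1 and 2.47% of all genes of that kind. In miR-187 replicate 2 the members' share is 1 gene.

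Members also had CpG-rich promoters more often than all genes, 57 of 69 with a promoter entry (82.6%) against 52.3%. Within CpG-rich genes, 43.9, 61.4, 40.4 and 5.26% of members had a boundary peak, beside 35.4, 50.4, 33.7 and 5.09% of all genes. The Wilson intervals of these member shares (31.8 to 56.7, 48.4 to 72.9, 28.6 to 53.3 and 1.81 to 14.4%) include the share of all CpG-rich genes in each library. Of the 12 members below the CpG limit, 2, 5, 4 and 1 had one (16.7, 41.7, 33.3 and 8.33%), beside 8.12, 11.9, 7.11 and 1.19% of all such genes. Their Wilson intervals were wide (4.70 to 44.8, 19.3 to 68.0, 13.8 to 60.9 and 1.49 to 35.4%). Only that of WT replicate 1 includes the share of all such genes, and the last rests on 1 gene.

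The position of the summits was measured from the nearest annotated start site for the 69 members with one. Median absolute distances were 112, 99.5, 188 and 152 bp over 27, 40, 27 and 4 genes. Within 250 bp of the start lay 18 of 27, 33 of 40, 18 of 27 and 3 of 4 summits (66.7, 82.5, 66.7 and 75%, beside 63.0, 66.7, 67.9 and 59.3% over all genes). Over all genes with a start site, the medians were 159, 135, 140 and 176 bp. All but 1 member per list in the first 3 libraries had its summit nearer the 5′ than the 3′ end, near the 93.9, 95 and 95% over all genes. The exception in each was Ndufb6, an accessory subunit of complex I, whose summits lay 727 to 894 bp from its 3′ end, at the boundaries of Smim27 and Topors.

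**Figure D4:**
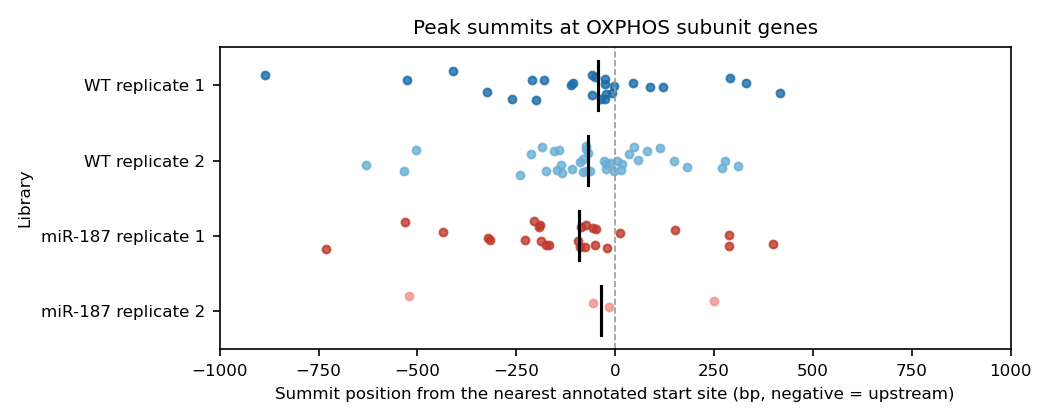
Position of the boundary peak summit from the nearest annotated start site (horizontal axis, bp, negative upstream) for subunit genes in each library, with a vertical bar at the median; genes without a start site entry and summits over 1 kb away are not drawn. Most points lie within 250 bp of the start in each library, with miR-187 replicate 2 resting on 4 points.

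Where 2 lists had a peak at the same member, the peaks mostly coincided. In the 2 WT lists, the strongest peaks overlapped at 24 of 26 members (92.3%, all genes 86.4%), with a median of 133 bp between summits. Between WT replicate 2 and miR-187 replicate 1 they overlapped at 26 of 30 (86.7%, all genes 89.7%). The members with a peak in both of these lists were 62.5% of the WT replicate 2 members and 88.2% of the miR-187 replicate 1 members, beside 51.2 and 78.8% over all genes. For miR-187 replicate 2, with 7 members, overlap was complete at the 5 or 6 members shared with each other list, beside 76.9, 83.8 and 81.4% over all genes. Close to the limit of the 1 kb window, the members counted farthest from a boundary were Atp5j at 962 bp in WT replicate 2, Ndufb6 at 894 bp in WT replicate 1 and Ndufa4l2 at 891 bp, and those just outside were Atp5g3 at 1054 and 1083 bp in WT replicate 2 and miR-187 replicate 1 and Atp5j at 1115 bp in miR-187 replicate 1.

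Each member's −log10 q was also expressed as a percentile rank in its own list, which describes its place in that list and has no common scale across lists of 9307, 12155, 7407 and 1461 peaks. The medians over members were 63.0 and 55.8 for the WT libraries and 42.7 and 44.1 for the miR-187 libraries. The group means were 59.4 ± 5.12 for WT and 43.4 ± 1.01 for miR-187 (SD, n = 2 each), -16.0 apart, and this is not read as a change in peak strength. Over all genes the medians were 59.7, 61.9, 56.7 and 54.5, or -5.24 between the group means. The 4 member medians are over different sets of 33, 48, 34 and 7 genes. For the 17 members shared by replicate 1 of both groups, the median change in rank was 2.76, with 8 lower and 9 higher in miR-187, beside -2.84 over all genes. For the 30 shared by WT replicate 2 and miR-187 replicate 1 it was -6.90, with 18 lower and 12 higher, beside -6.44 over all genes. Against miR-187 replicate 2 it was -28.2 for WT replicate 1 (4 of 5 lower, all genes -9.32) and -21.2 for WT replicate 2 (5 of 6 lower, all genes -16.2). Between the 2 miR-187 libraries themselves it was -19.4 over 5 members (all genes -9.22), so a shift of this size also occurred within a group.

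**Figure D5:**
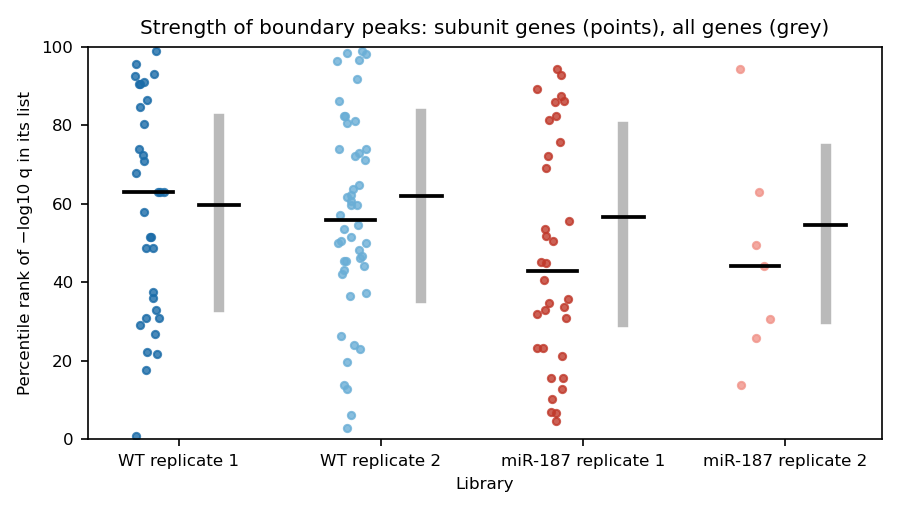
Percentile rank of −log10 q within each list (vertical axis) for the boundary peaks of subunit genes (points, black line at the median) and of all genes (grey bar from lower to upper quartile, black line at the median). The member medians are 63.0, 55.8, 42.7 and 44.1 and those of all genes 59.7, 61.9, 56.7 and 54.5.

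Among members with a peak in at least 3 lists, the highest minimum ranks belonged to Ndufa6 (85.9), Ndufb6 (70.9), Ndufv2 and Ndufs7 (63.0 each), Ndufb4 (51.6), Cycs (48.7), Ndufv1 (44.8), Atp5b (44.1), Uqcrc2 (30.5) and Uqcrq (29.1). Ndufa6, an accessory subunit of the matrix arm of complex I, had −log10 q values of 6.84, 14.5 and 6.53 in WT replicate 1, WT replicate 2 and miR-187 replicate 1, with folds of 7.39, 7.73 and 6.16. Its peak was thus strong in 3 libraries and not listed in miR-187 replicate 2. Ndufb4 ranked at 51.6 and 72.1 in WT and at 81.4 in miR-187 replicate 1, and Uqcrq ranked at 29.1, 53.7 and 31.9. Uqcrh, the hinge subunit of complex III, ranged widely, from 99.1 in WT replicate 1 to 46.1 in WT replicate 2 and 6.89 in miR-187 replicate 1.

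Promoter motifs were counted in the 69 members and 16457 genes with a promoter entry, searching both strands of the 300 bases. NRF1 letters were present in 11 members (15.9%), beside 3.99% of all genes, and YY1 letters in 10 (14.5%), beside 3.59%. ETS letters were found in 17 (24.6%), beside 13.3%, and those of the estrogen-related receptors in 8 (11.6%), beside 4.69%. CCAAT boxes were in 29 members (42.0%), beside 42.3%, and SP1 letters were in 29 (42.0%) beside 50.3%. Among CpG-rich genes the ETS shares were 24.6% of members and 21.3% of all genes, the NRF1 shares 17.5% and 6.87%, and the SP1 shares 43.9% and 76.7%. A match describes these letters only. Overlapping matches to different motifs occurred in 1 of the 74 member promoters.

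By peak status, YY1 letters were in 9 of 47 members with a boundary peak in any list and in 1 of 22 without, beside 5.35% and 2.39% of all genes with and without. NRF1 letters were in 7 of 47 (14.9%) and 4 of 22 (18.2%), beside 6.60% and 2.23% of all genes. Members with NRF1 letters were Cycs, Ndufa6, Ndufa8, Ndufa11, Atp5g2, Atp5l, Uqcr11, Uqcrc1, Sdhb, Cox6a1 and Atp5k, of which the last 4 had no boundary peak. Those with YY1 letters were Atp5j, Atp5j2, Atp5pb, Ndufa3, Ndufa9, Ndufb8, Ndufc1, Ndufs4, Ndufs6 and Ndufs7, of which only Ndufa9 had no boundary peak. Among the complex IV promoters, 1 of 12 held NRF1 letters, 3 held ETS letters and 0 held YY1 letters, and the Cox8a and Cox6b1 sequences above show the ETS letters, read on the other strand.

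The genes that build and regulate the chain were examined alongside the subunits. Of 48 assembly factors, 28, 37, 25 and 4 had a boundary peak (58.3, 77.1, 52.1 and 8.33%), beside 21.8, 31.2, 20.3 and 3.18% of all genes, and 43 had one in at least 1 list. Acad9 and Ecsit, both complex I assembly factors, had a peak in all 4 lists. Of the 24 held by both WT lists, 7 (29.2%) had none in miR-187, beside 36.3% of all genes. Of 16 transcriptional regulators, 5, 10, 8 and 3 had a peak (31.2, 62.5, 50.0 and 18.8%). Tfb2m, a mitochondrial transcription factor, had one in all 4 lists, Esrra in both WT libraries and miR-187 replicate 2, Nrf1 in replicate 1 of each group, and Tfam, Tfb1m, Polrmt and Gabpa in replicate 2 of WT and replicate 1 of miR-187. The Gabpa peaks had the −log10 q values (9.87 and 6.61) of the peaks at the Atp5j start site in these libraries. Only that of WT replicate 2 was counted for Atp5j, since the miR-187 replicate 1 summit lay 1115 bp from its boundary. The coactivator Ppargc1a had a peak in WT replicate 2 only. Yy1 had one in both WT libraries (−log10 q 2.45 and 12.5) and in no miR-187 library, and Ppara had one in miR-187 replicate 2 only (3.32).

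The ribosomal protein genes, sets close to the subunit set in number of genes, gave 32, 50, 35 and 6 of 78 for the mitochondrial ribosome and 37, 52, 29 and 2 of 87 for the cytosolic ribosome. The mitochondrial set had 41.0, 64.1, 44.9 and 7.69% with a peak and the cytosolic set 42.5, 59.8, 33.3 and 2.30%. Of the genes held by both WT lists, 8 of 27 (29.6%) and 10 of 26 (38.5%) had none in miR-187, beside 36.3% of all genes, the latter equal to the 10 of 26 of the subunit genes. No test was made between these sets and the subunit genes.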

How the data were processed

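ATAC-seq libraries of mouse heart (2 WT, 2 miR-187, groups from the sample titles) were represented by 1 narrowPeak list each. The submitters' processing notes name Bowtie2 2.2.6, SAMtools 1.10, MACS2 2.2.7.1 and the build mm10 without their roles; read and duplicate filters are not given in the sources used here. Each deposited list holds, for every peak, a score (the −log10 q times 10, truncated), the fold enrichment over background, and −log10 p and −log10 q values from the authors' peak caller, all with q below 0.05. Signal between peaks was not used here.

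Summits on autosomes were matched to protein-coding genes of RefSeq GRCm38.p6, the assembly of mm10, with Python 3.11.15, numpy 2.4.6, pandas 2.3.3 and scipy 1.17.1. A gene had a boundary peak if a summit lay within 1 kb of either end, and its strongest peak by −log10 q was used. No read totals are in the lists. Whole-number pileups (reads at the summit) and backgrounds were therefore solved from the fold and −log10 p within 0.0005, which succeeded for 100% of peaks, and the lowest background, over reads extended to 200 bp, gave the density of each library. This is an inference, and no measured depth was available to check it. A shallower library lists fewer peaks at equal accessibility. For thinning, the inferred reads at each summit were thinned binomially to the lowest background density and each listed peak was given its probability of still reaching the lowest −log10 p of the shallowest list; regions with no listed peak add nothing, so the expected numbers are lower estimates.

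The subunit genes and the lists of assembly factors, regulators, isoforms, ribosomal proteins and markers were chosen with earlier results of these data known. Of the list genes, Cox7b is not autosomal and was left out. Named genes were those in all 4 lists, in both lists of one group only or in miR-187 replicate 2, the 10 highest minimum ranks among genes in at least 3 lists, and the members of complex II, Cyc1, Cycs, the isoform pairs and the complex I core; others named beside a count of a pattern, complex or motif were chosen after their values were seen. Promoter entries matched 69 of 87 members. Lists were described by counts beside all genes, without a set test. Alternatives were a −log10 q of at least 5, equal numbers of peaks, windows of 500 bp and 3 kb, overlap in place of the summit, start sites only, each library left out and a replicate block, and, added after seeing the data, thinning to one background density, members without a neighbouring gene and crossed replicate numbers.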

Additional observations from a re-analysis of the deposited data

How the results depend on the processing

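The difference in members with a boundary peak (-20.0 genes) became 0 when each list was limited to 1461 peaks and -2.31 when inferred summit reads were thinned to one background density. The excess of the member share over the share of all genes, -8.20 percentage points from WT to miR-187, reversed to 1.24 with equal peak numbers and 0.0655 with that thinning. Equal peak numbers fix the list length by construction, whereas the thinning matches 1 inferred statistic and does not establish equal depth. The 10 members with a peak in the WT lists only became 3 at a −log10 q of at least 5, 1 with equal peak numbers and 3 among members without a neighbouring gene. The difference in median rank (-16.0) was -6.78 at a −log10 q of at least 5, -22.4 with equal peak numbers and -11.4 with a 500 bp window, and the cause was not tested.

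Leaving out each library in turn gave between -33.5 and -6.50 members, -15.2 and -1.24 percentage points, 11 and 21 members in the WT lists only, a share of 19.2 to 64.6% of WT members kept in at least 1 miR-187 list (61.5% with all libraries), and a rank difference of -19.6 to -12.4. The share of 19.2% and the 21 members came without miR-187 replicate 1, where 376 of 3417 genes over all genes were kept. With all libraries the kept share over all genes was 63.7%. A replicate block left the differences at -20.0, -8.20 and -16.0, since a mean over pairs equals the difference of means. The numbers are only labels here: libraries with the same number had deviations from their group means that correlated at -0.114 across 20665 genes, and crossing them, an alternative added after seeing the data, also left -20.0. In all, 49 of the recomputed values kept their direction and stayed within a set limit, 11 moved further and 2 reversed. The limit was the spread between libraries (15.4 members, 8.0 percentage points, 3.69 in rank). For the count it was 1.5 times, and for the kept share its 95% Wilson interval (42.5 to 77.6%). The 49 include the values of the replicate block and its crossing, which equal the main values by construction. The limits are also wide, since -6.50 members without miR-187 replicate 2 fell within them.

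The miR-187 replicate 2 list limits these results, with 1461 peaks and a median of 6 inferred reads at the summit. Whether lower depth accounts for the short list was not tested. With 2 libraries a group, no exact permutation p falls below 0.05. Many member peaks lie at another gene too, and a gene without a listed peak is not shown to be closed.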

Other observations

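The subunit genes on the X chromosome, Ndufa1, Ndufb11 and Cox7b, were outside the autosomal set. Ndufa1, a small membrane-arm subunit of complex I, had a boundary peak in WT replicate 2 only (chrX:37191204-37191521, −log10 q of 3.47). Ndufb11 and Cox7b had none in any of the 4 lists.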
